A study of Mus musculus with 9 samples.

Results

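Cholesterol synthesis and its control by the transcription factor SREBP2 were followed through 28 genes, listed by symbol for their known roles and found by name among the 51826 genes of the count table. The list was drawn up with earlier results of these data known. It holds 8 genes of the mevalonate and isoprenoid steps and 11 of the squalene and sterol steps. Another 6 are SREBP2 and its control, and 3 encode proteins that move sterol inside the cell. All 28 had enough counts to be tested, as did 14458 genes in all. RNA came from RAW 264.7 cells, a macrophage line of mouse origin, grown as 9 cultures, with 3 biological replicates per group according to the labels. Vehicle cells received solvent alone, LPS cells received lipopolysaccharide, a bacterial cell wall component recognised by TLR4, at 300 ng/mL for 6 h, and the pretreated cells received the isoflavone calycosin at 100 µg/mL for 24 h and then LPS as above. Calycosin alone was not among the treatments, and a single cell line limits how far the values extend to primary macrophages. The stated purpose of the series was to examine calycosin as an anti-inflammatory agent in macrophages.

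Animal cells build cholesterol from acetyl-CoA by way of mevalonate, the isoprenoid diphosphates, squalene and lanosterol. When sterol in the membrane of the endoplasmic reticulum is low, SCAP escorts SREBP2 to the Golgi, where 2 proteases release its active part, which enters the nucleus and switches on most genes of the pathway. INSIG proteins hold SCAP back when sterol is plentiful, and in macrophages the pathway is also known to respond to microbial stimuli and interferons.

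Levels are given as CPM, counts per 1000000 counts of a library after TMM scaling, and fold changes on the log2 scale with the standard error (SE). A gene was called higher or lower where edgeR's quasi-likelihood test gave an adjusted p (Benjamini-Hochberg, over all genes tested) under 0.05. Library totals ran from 27784737 to 38524105 counts, and a member had between 14 (Tm7sf2) and 12876 (Npc2) counts in a library. The share of mitochondrial transcripts was 3.68% to 3.79% in vehicle replicates 1 and 2 but 21.9% in replicate 3, 13.0% to 14.7% with LPS, and 7.45% in the second pretreated library against 17.2% and 19.4% in its partners. The third vehicle library and the second pretreated library also stood apart over all genes. Members in vehicle replicate 3 were at 0.275 (Tm7sf2) to 1.82 times (Mbtps2) the mean of the other vehicle libraries, and in calycosin plus LPS replicate 2 at 0.704 (Mbtps2) to 1.56 times (Msmo1). All 10 macrophage markers had counts in every group, with sums of 5352 to 5693 CPM in vehicle, 5746 to 5945 CPM in LPS and 4060 to 4632 CPM in pretreated cells. Marker lists of T cells, B cells, neutrophils and epithelial cells summed to at most 0.374 CPM in any library, and in LPS cells 3 of 4, 3 of 3, 3 of 4 and 3 of 3 of these markers had no counts. The fibroblast and endothelial lists summed to 1.29 to 3.64 CPM and 4.16 to 6.27 CPM in LPS cells, against at most 0.259 and 1.17 CPM in the other groups. Most of these sums in LPS cells was Pdgfrb (1.12 to 2.28 CPM) and Cdh5 (3.78 to 5.45 CPM). Col1a1, Col1a2, Pdgfra, Pecam1 and Kdr averaged 0.03 to 0.64 CPM there. The part of these marker differences in the results was not tested. For the mitochondrial share, fits with it as a covariate and among the libraries with over 10% are given below. Beyond these fits its part was not tested. In bulk RNA fewer cells with a transcript and less of it per cell cannot be told apart.

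Promoters are shown for 5 of the members that were called in the comparison of pretreated with LPS cells, as examples and not as a complete set. That of Hmgcs1 follows, which was not called and was added after the search as the member with a sterol regulatory element match. Each is the stretch from 250 bases before to 50 after a RefSeq transcription start (GRCm38.p6), read 5′ to 3′ on the gene's strand. Capitals mark exact matches on either strand to CCAAT, the box bound by NF-Y, to GGGCGG, the GC box bound by Sp1, or to TCACNCCAC, a form of the sterol regulatory element bound by SREBP2. Dhcr7 has 3 entries in the table, and the farthest downstream is shown, since it holds the most matches.
Dhcr7 (chr7:143829964-143830263, plus strand): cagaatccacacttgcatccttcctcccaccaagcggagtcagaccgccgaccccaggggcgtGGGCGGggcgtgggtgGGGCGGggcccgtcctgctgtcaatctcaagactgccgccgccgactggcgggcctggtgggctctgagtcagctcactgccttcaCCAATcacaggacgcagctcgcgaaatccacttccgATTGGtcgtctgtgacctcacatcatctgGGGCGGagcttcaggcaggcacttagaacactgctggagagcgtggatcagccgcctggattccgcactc
Idi1 (chr13:8885356-8885655, plus strand): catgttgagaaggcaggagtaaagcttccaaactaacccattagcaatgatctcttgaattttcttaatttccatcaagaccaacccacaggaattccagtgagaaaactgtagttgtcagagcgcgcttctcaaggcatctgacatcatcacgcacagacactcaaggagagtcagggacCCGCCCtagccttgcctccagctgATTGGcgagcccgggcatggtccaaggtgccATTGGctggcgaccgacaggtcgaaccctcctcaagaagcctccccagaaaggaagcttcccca
Insig1 (chr5:28071162-28071461, plus strand): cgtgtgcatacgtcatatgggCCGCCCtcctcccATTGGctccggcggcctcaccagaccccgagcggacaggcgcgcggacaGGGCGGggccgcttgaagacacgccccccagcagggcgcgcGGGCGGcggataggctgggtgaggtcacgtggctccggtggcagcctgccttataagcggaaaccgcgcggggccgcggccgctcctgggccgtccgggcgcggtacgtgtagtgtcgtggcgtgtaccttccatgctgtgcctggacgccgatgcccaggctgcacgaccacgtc
Hsd17b7 (chr1:169969156-169969455, minus strand): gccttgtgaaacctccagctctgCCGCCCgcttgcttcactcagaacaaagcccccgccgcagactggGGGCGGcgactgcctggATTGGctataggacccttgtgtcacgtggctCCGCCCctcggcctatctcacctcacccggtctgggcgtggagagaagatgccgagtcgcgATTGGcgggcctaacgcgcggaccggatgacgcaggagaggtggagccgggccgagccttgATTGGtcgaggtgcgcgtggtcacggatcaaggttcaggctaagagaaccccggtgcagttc
Cyp51 (chr5:4104648-4104947, minus strand): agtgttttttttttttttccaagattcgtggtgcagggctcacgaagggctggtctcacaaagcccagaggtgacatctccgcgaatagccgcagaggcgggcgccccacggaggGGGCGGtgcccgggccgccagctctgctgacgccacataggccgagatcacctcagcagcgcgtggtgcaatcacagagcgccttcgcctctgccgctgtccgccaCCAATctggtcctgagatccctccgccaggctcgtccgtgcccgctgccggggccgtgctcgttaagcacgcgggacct
Hmgcs1 (chr13:119690101-119690400, plus strand): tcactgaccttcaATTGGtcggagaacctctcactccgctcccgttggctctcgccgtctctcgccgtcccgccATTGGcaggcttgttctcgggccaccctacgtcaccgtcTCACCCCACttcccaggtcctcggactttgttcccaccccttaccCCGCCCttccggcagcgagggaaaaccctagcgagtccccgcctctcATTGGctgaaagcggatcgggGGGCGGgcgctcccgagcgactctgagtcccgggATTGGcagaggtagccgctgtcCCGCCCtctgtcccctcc

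The promoter table had entries for 23 of the 28 members, 29 entries in all. A CCAAT box was present in 19 of the 23 genes (82.6%), against 41.1% of all 27025 genes in the table. GGGCGG was present in 20 of them (87.0%), against 38.2% of all genes. TCACNCCAC was present in 1 of the 29 member promoters (3.45%), against 1.24% of all 32851 promoters, and the match was in Hmgcs1, starting 137 bases before the start site. The stricter TCACCCCAC, which lies within the same match, was present in 0.551% of all promoters. The Dhcr7 stretch held 2 CCAAT and 3 GGGCGG matches, and Hsd17b7 held 3 of each, whereas the other Dhcr7 entries held no CCAAT. Among called members whose promoters are not shown, the entries of Acat2, Scap and Mbtps1 held no CCAAT, and those of Lss and Npc2 did. These matches describe letters in a window and were not tested against the expression values.

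The plot of all members by library shows how the groups differ. In LPS cells Dhcr7, Acat2, Mvd and Stard4 were the members farthest below vehicle, and Ggps1, Npc2 and Mbtps2 the farthest above it. In pretreated cells Idi1 stood highest above vehicle.

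**Figure D1:**
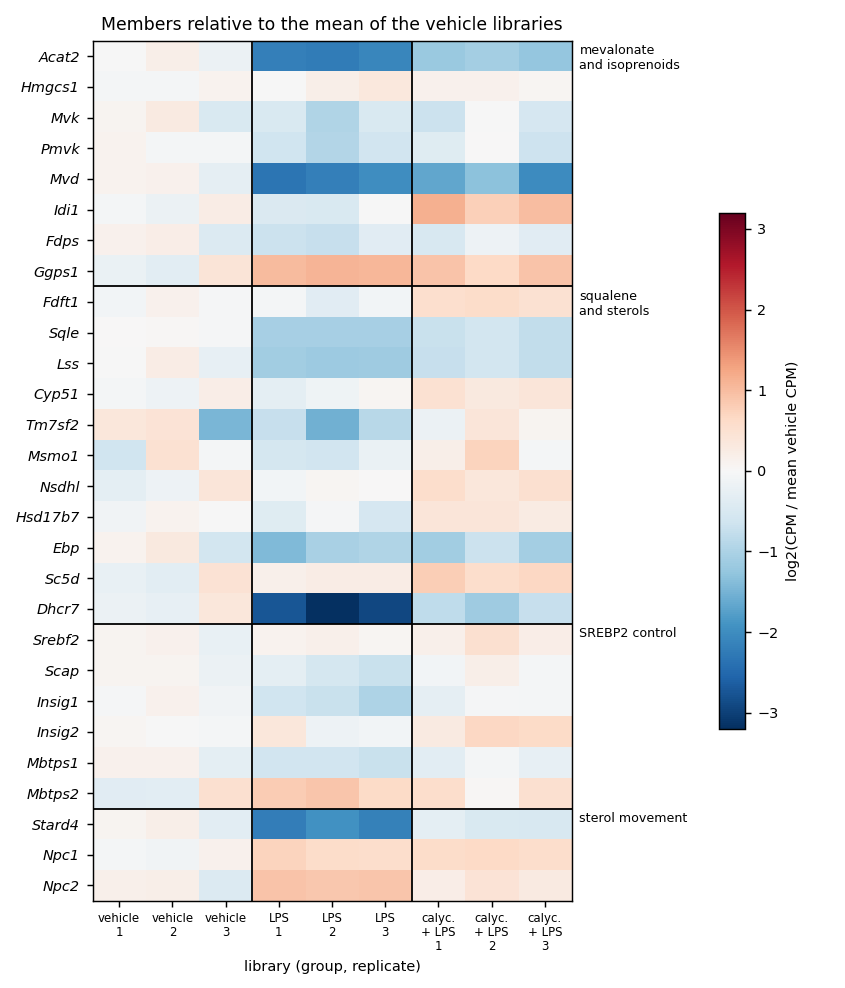
Level of each of the 28 members (rows, grouped by role) in each of the 9 libraries (columns), as log2 of its CPM over the mean CPM of the 3 vehicle libraries; blue is lower and red is higher. Dhcr7, Acat2, Mvd and Stard4 are deep blue in the 3 LPS libraries, and Idi1 is red in the 3 pretreated libraries.

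LPS lowered more members than it raised. Among the 28 members, 12 were lower, 4 were higher and 12 were not called, where 28.9% of all genes tested were lower and 27.3% higher. The median log2 fold change of the members was -0.49, beside -0.07 over all genes tested. Of the called members 7 were at least 2-fold lower and 1, Ggps1, at least 2-fold higher. Over the 14458 genes tested, 2501 were called at least 2-fold lower and 2361 at least 2-fold higher. LPS and vehicle libraries did not overlap for 15 of the 28 members, as for 8789 of the 14458 genes tested. The 12 lower members were Acat2, Pmvk, Mvd, Fdps, Sqle, Lss, Ebp, Dhcr7, Scap, Insig1, Mbtps1 and Stard4, and the 4 higher were Ggps1, Mbtps2, Npc1 and Npc2. Fdps missed the threshold without vehicle replicate 1 or 2 or LPS replicate 1 or 2 (adjusted p = 0.0661 to 0.0888). Mbtps2 also missed it without vehicle replicate 1 or 2 or LPS replicate 1 or 2 (adjusted p = 0.0537 to 0.0815). Among the libraries with over 10% mitochondrial counts, which leave 1 vehicle library, assumed to vary like the others, 10 members were lower and 4 higher. These were not the same members, since Fdps, Ebp, Scap and Mbtps2 were not called there (log2 -0.15, -0.56, -0.36 and 0.24, adjusted p = 0.524, 0.0619, 0.112 and 0.182), and Nsdhl was lower and Srebf2 higher.

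In cells pretreated with calycosin more members were above than below their level in LPS cells. Among the 28 members, 12 were higher, 1 was lower and 15 were not called, where 16.1% of all genes tested were higher and 12.9% lower. The members' median log2 fold change was 0.47, beside 0.02 over all genes tested. The 12 higher members were Acat2, Idi1, Fdft1, Sqle, Lss, Cyp51, Hsd17b7, Dhcr7, Scap, Insig1, Mbtps1 and Stard4, and 4 of these, Dhcr7, Stard4, Idi1 and Acat2, were at least 2-fold higher. Over the 14458 genes tested, 1020 were called at least 2-fold higher. Npc2 was lower. The 2 groups did not overlap for 19 of the 28 members, as for 7190 of the 14458 genes tested. Dhcr7 and Idi1 were called in all 23 alternative settings tried, Acat2 and Hsd17b7 in 22, Fdft1 in 21, and Stard4 and Insig1 in 20. The calls with a smaller fold had adjusted p of 0.0183 to 0.048 and were lost when some single libraries were left out. With single libraries left out, the fold changes of Sqle and Lss moved little in the fits that lost their calls. They were at 0.32 to 0.38 and 0.38 to 0.49, against 0.36 and 0.44 with all libraries. Both calls were also lost in limma on log2(TPM + 1), described below, where the values moved more, to 0.65 and 0.62. Sqle missed the threshold without LPS replicate 1 or 2 or calycosin plus LPS replicate 1 or 2 (adjusted p = 0.0547 to 0.0648). Cyp51 missed it without LPS replicate 1 or 2 or calycosin plus LPS replicate 1 or 3 (0.055 to 0.078). Without LPS replicate 2 or 3 or calycosin plus LPS replicate 2, Scap was not called (0.0602 to 0.0645). Npc2 lost its call without any of the 3 LPS libraries and without calycosin plus LPS replicate 1 or 3 (0.0653 to 0.0982). Lss was not called without vehicle replicate 1 or any of the 6 LPS and pretreated libraries (0.0649 to 0.124), and Mbtps1 without vehicle replicate 1 or 2 or any of those 6 (0.053 to 0.144). This comparison uses the same LPS libraries as the comparison of LPS with vehicle, so the fold changes of a gene in both are not independent.

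Against vehicle, pretreated and stimulated cells had members on both sides. Among the 28 members, 8 were higher, 6 were lower and 14 were not called, where 25.4% of all genes tested were higher and 23.6% lower. Idi1, Ggps1, Fdft1, Cyp51, Nsdhl, Sc5d, Insig2 and Npc1 were higher, none of them by 2-fold, and Acat2, Mvd, Sqle, Lss, Ebp and Dhcr7 were lower, Acat2 and Mvd by at least 2-fold. Over the 14458 genes tested, 1949 were called at least 2-fold higher and 1721 at least 2-fold lower. The median of the members was 0.10, beside -0.0045 over all genes tested, and it was below 0 in 6 of 23 alternative settings. The 2 groups did not overlap for 16 members, as for 8128 of the genes tested. With both libraries that stood apart left out, an alternative chosen after seeing the data, 10 members were lower and 8 higher, and Dhcr7 and Insig2 were not called (adjusted p = 0.0742 and 0.114). That fit called 60.1% of all genes tested, against 49% with all libraries. Dhcr7 was also not called without calycosin plus LPS replicate 2 alone (0.0575), and Sc5d was not called without vehicle replicate 1 or 2 or calycosin plus LPS replicate 1 (0.0581 to 0.0642). Insig2 lost its call without any single vehicle library or calycosin plus LPS replicate 2 or 3 (0.0523 to 0.0799). Cyp51 lost it without vehicle replicate 1 or 2, LPS replicate 2 or calycosin plus LPS replicate 1 or 3 (0.052 to 0.144), and Nsdhl without any library other than vehicle replicate 3 (0.0511 to 0.154). Among the libraries with over 10% mitochondrial counts, 5 members were higher and 5 lower, without Fdft1, Cyp51, Nsdhl, Sc5d, Insig2 and Ebp (adjusted p = 0.0503 to 0.437) and with Srebf2 and Npc2.

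**Figure D2:**
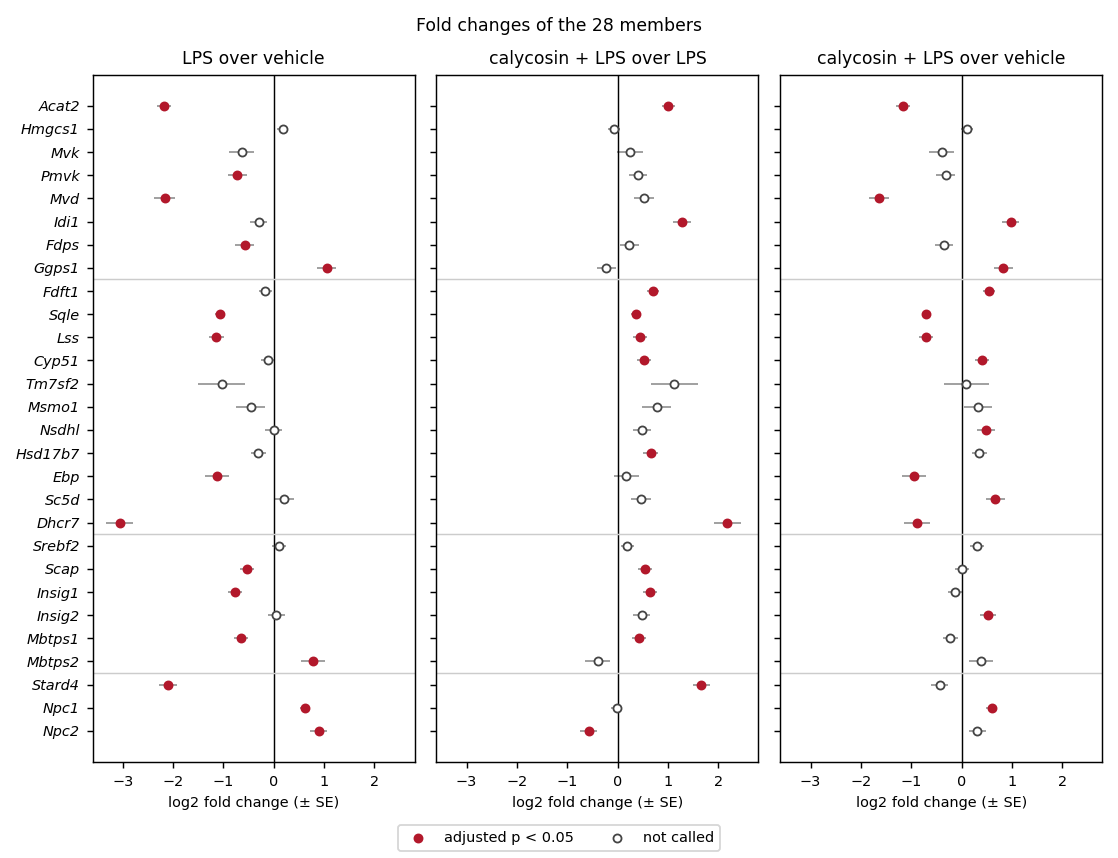
Log2 fold change of each of the 28 members (rows, grouped by role) in the 3 comparisons, with bars of ± 1 SE; filled red points passed an adjusted p of 0.05 in edgeR's quasi-likelihood test and open points did not. In the first panel 12 filled points lie left of 0 and 4 right of it, and in the second 12 lie right of 0 and 1 left.

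Scaling touched the direction of some changes. On the deposited TPM scale, which adjusts for transcript length, the median log2 difference of all genes was -0.61 for LPS over vehicle, 0.25 for pretreated over LPS and -0.33 for pretreated over vehicle. Relative to these shifts all 16, 13 and 14 members called in the count comparisons kept their direction. Unadjusted log2(TPM + 1) differences turned for Npc1 (-0.16) and Mbtps2 (-0.01) in LPS over vehicle and for Cyp51 (-0.06) in pretreated over vehicle, and relative to the shift these were 0.45, 0.60 and 0.27. In limma on log2(TPM + 1), 4 of the 16 calls in LPS over vehicle were lost (Ggps1, Mbtps2, Npc1 and Npc2), 9 of 13 in pretreated over LPS (Fdft1, Sqle, Lss, Cyp51, Scap, Insig1, Mbtps1, Stard4 and Npc2) and 8 of 14 in pretreated over vehicle (the 8 higher members). Upper-quartile scaling of the counts made 37.1% rather than 48.6% of all calls higher in LPS over vehicle, and 41.6% rather than 51.8% in pretreated over vehicle. In limma on log2(TPM + 1) the shares were 17.5%, 80.9% and 28.8% in the 3 comparisons, where the counts gave 48.6%, 55.5% and 51.8%. The members' median in LPS over vehicle was negative in all 23 alternatives (-1.18 to -0.34), and in pretreated over LPS it was positive in all 23 (0.40 to 0.76).

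The mevalonate and isoprenoid steps turn acetyl-CoA into the 5-carbon and longer isoprenoid diphosphates. Acat2 (ENSMUSG00000023832, chr17:12942890-12960747, GRCm38), which encodes the cytosolic thiolase that joins acetyl-CoA units, was at 21.4, 24.4 and 18.8 CPM in the vehicle libraries, 4.69, 4.55 and 5.03 CPM in the LPS libraries and 9.46, 10.1 and 9.17 CPM in the pretreated libraries. The 3 groups did not overlap, and the pretreated libraries lay between the others. Acat2 fell by 2.18 ± 0.14 (SE) with LPS, 4.53-fold (adjusted p = 1.06e-06), and was 2.02-fold higher in pretreated than in LPS cells (log2 1.01 ± 0.138, adjusted p = 0.000804). Pretreated cells stayed 2.25-fold under vehicle (adjusted p = 8.77e-05). Its near-identical neighbour Acat3 had 399 counts over all libraries against 4222 for Acat2, so the division of reads between them is uncertain.

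Hmgcs1 (ENSMUSG00000093930, chr13:119690379-119708260), which makes HMG-CoA, was at 43.5, 43.7 and 48.8 CPM in vehicle, 45.3, 51.2 and 57.3 CPM in LPS and 49.6, 49.6 and 47.1 CPM in pretreated cells. All pairs of groups overlapped. Its log2 fold change was 0.18 ± 0.115 in LPS over vehicle and -0.07 ± 0.115 in pretreated over LPS (adjusted p = 0.213 and 0.677), and it was not called in the third comparison. Mvd (ENSMUSG00000006517, chr8:122433601-122443422), which decarboxylates mevalonate diphosphate, was at 27.7, 28 and 20.8 CPM in vehicle, 5.05, 5.58 and 6.40 CPM in LPS and 7.99, 10.2 and 6.35 CPM in pretreated cells. Every LPS and pretreated library lay far under the vehicle libraries, and 1 pretreated library lay within the LPS range. The fall with LPS was 4.49-fold (log2 -2.17 ± 0.206, adjusted p = 1.55e-05). For pretreated over LPS the log2 fold change was 0.53 ± 0.203, which was not called (adjusted p = 0.078), and pretreated cells were 3.11-fold under vehicle (adjusted p = 0.000133).

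Idi1 (ENSMUSG00000058258, chr13:8885501-8892451), the isomerase that makes the reactive isoprenoid unit, was at 22.2, 20.5 and 27.3 CPM in vehicle, 16.9, 16.8 and 23.1 CPM in LPS and 51.6, 39.6 and 46.1 CPM in pretreated cells. The vehicle and LPS libraries overlapped, and every pretreated library was above all of them. Idi1 was 2.42-fold higher in pretreated than in LPS cells (log2 1.27 ± 0.177, adjusted p = 0.00088) and 1.96-fold higher than in vehicle (adjusted p = 0.00146), while LPS over vehicle was -0.30 ± 0.175 (adjusted p = 0.171). Among the other genes of this group, the kinase gene Pmvk averaged 12.9 ± 0.827 CPM (SD, n = 3) in vehicle and 7.81 ± 0.912 CPM in LPS cells and was called lower (log2 -0.72, adjusted p = 0.00748). The preceding kinase gene, Mvk, had a log2 fold change of -0.63 that was not called (adjusted p = 0.0546). Fdps, which makes farnesyl diphosphate, was lower with LPS (log2 -0.58, adjusted p = 0.0246), and neither Pmvk, Mvk nor Fdps was called in the other comparisons.

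Ggps1 (ENSMUSG00000021302, chr13:14050659-14063488), which makes the geranylgeranyl diphosphate used to anchor small GTPases, moved the other way. It was at 12.9, 11.8 and 19.9 CPM in vehicle, 29.8, 31.5 and 31.1 CPM in LPS and 28.2, 23.1 and 27.9 CPM in pretreated cells. The vehicle libraries lay under all others, and the pretreated libraries just under the LPS libraries. Ggps1 rose 2.07-fold with LPS (adjusted p = 0.00125) and stood 1.78-fold above vehicle in pretreated cells (adjusted p = 0.006), and its log2 fold change in pretreated over LPS was -0.22 ± 0.192 (adjusted p = 0.416). Ggps1 shares 257 exonic bases with Arid4b on the opposite strand, which had a log2 fold change of 0.78 with LPS, so its reads are uncertain without strand information. On the TPM scale Ggps1 averaged 14.1 TPM in vehicle, 15.0 TPM in LPS and 16.1 TPM in pretreated cells, and limma on log2(TPM + 1) called neither difference from vehicle (0.10 and 0.19, adjusted p = 0.691 and 0.51).

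The squalene and sterol steps commit the chain to sterols and then trim lanosterol to cholesterol. Fdft1 (ENSMUSG00000021273, chr14:63145150-63179578), squalene synthase, was at 20.7, 24.2 and 21.4 CPM in vehicle, 21.3, 17.3 and 20.7 CPM in LPS and 32.3, 33.5 and 30.8 CPM in pretreated cells. Vehicle and LPS libraries overlapped, and the pretreated libraries were above both. Fdft1 was 1.63-fold higher in pretreated than in LPS cells (log2 0.71 ± 0.125, adjusted p = 0.00296) and 1.46-fold higher than in vehicle (adjusted p = 0.00546). Its exons share 774 bases with those of Ctsb on the opposite strand, and Ctsb had 1187470 counts over all libraries against 7708 for Fdft1, so the Fdft1 level is uncertain without strand information. Ctsb itself had a log2 fold change of -0.23 in pretreated over LPS (adjusted p = 0.259).

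Sqle (ENSMUSG00000022351, chr15:59315077-59331192), the squalene epoxidase, was at 69.9, 71.4 and 68.0 CPM in vehicle, 33.5, 33.4 and 33.4 CPM in LPS and 42.4, 46.1 and 40.5 CPM in pretreated cells. No 2 groups overlapped. The gene fell 2.09-fold with LPS (log2 -1.06 ± 0.0967, adjusted p = 1.16e-05), was 1.29-fold higher in pretreated than in LPS cells (adjusted p = 0.0192) and was 1.62-fold under vehicle there (adjusted p = 0.000281). Lss (ENSMUSG00000033105, chr10:76531588-76557138), which closes the sterol rings, was at 40.8, 48.0 and 33.8 CPM in vehicle, 18.9, 18.3 and 18.5 CPM in LPS and 24.5, 27.4 and 23.6 CPM in pretreated cells. Its groups were also apart, with a 2.20-fold fall with LPS (adjusted p = 0.000104) and a 1.36-fold higher level in pretreated than in LPS cells (adjusted p = 0.0438).

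Cyp51 (ENSMUSG00000001467, chr5:4081145-4104746), the lanosterol demethylase, was at 33.7, 32.0 and 40.8 CPM in vehicle, 28.5, 32.4 and 37.3 CPM in LPS and 50.1, 44.3 and 46.5 CPM in pretreated cells. Every pretreated library was above the other 6. Cyp51 was 1.44-fold higher in pretreated than in LPS cells (log2 0.52 ± 0.14, adjusted p = 0.0205) and 1.32-fold higher than in vehicle (adjusted p = 0.0361), a direction that turned on the unadjusted TPM scale. It shares 166 exonic bases with Akap9 on the opposite strand, which was at -0.32 in pretreated over LPS (adjusted p = 0.225). Hsd17b7, a sterol ketone reductase, was at 15.2, 17.6 and 16.3 CPM in vehicle, 12.5, 15.9 and 11.3 CPM in LPS and 21.4, 21.6 and 19.7 CPM in pretreated cells. The pretreated libraries again lay above all others, and Hsd17b7 was 1.58-fold higher than in LPS cells (adjusted p = 0.00878).

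Dhcr7 (ENSMUSG00000058454, chr7:143823145-143848410), which reduces 7-dehydrocholesterol to cholesterol, had the largest fold changes among the members in both comparisons that use the LPS libraries. It was at 42.0, 40.2 and 62.2 CPM in vehicle, 7.19, 3.65 and 6.44 CPM in LPS and 27.5, 22.0 and 28.8 CPM in pretreated cells. The 3 groups were far apart, with the pretreated libraries between the others. Dhcr7 fell 8.36-fold with LPS (log2 -3.06 ± 0.276, adjusted p = 1.08e-05) and was 4.53-fold higher in pretreated than in LPS cells (log2 2.18 ± 0.269, adjusted p = 0.000501). Pretreated cells were 1.84-fold under vehicle (adjusted p = 0.0162).

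Ebp (ENSMUSG00000031168, chrX:8185329-8193512), the sterol isomerase, was at 21.7, 24.8 and 13.3 CPM in vehicle, 7.51, 9.68 and 10.3 CPM in LPS and 9.14, 12.4 and 9.39 CPM in pretreated cells. LPS and pretreated libraries overlapped, and both lay under vehicle. The gene was 2.18-fold lower with LPS (adjusted p = 0.00304) and 1.93-fold lower than vehicle in pretreated cells (adjusted p = 0.00879), and its log2 fold change in pretreated over LPS was 0.18 ± 0.241. Among the libraries with over 10% mitochondrial counts neither call held (log2 -0.56 and -0.53, adjusted p = 0.0619 and 0.11). The other sterol genes were called in fewer comparisons. Nsdhl, a sterol dehydrogenase, and Sc5d, the desaturase before Dhcr7, averaged 36.9 ± 2.44 and 55.6 ± 4.21 CPM in pretreated cells, against 26.4 ± 6.96 and 34.8 ± 11.2 CPM in vehicle (SD, n = 3), and were called higher there (log2 0.49 and 0.67, adjusted p = 0.0413 and 0.0167). Neither was called in the other comparisons. Msmo1, the sterol methyl oxidase, was at 21.1, 45.8 and 31.5 CPM in vehicle, 22.3, 21.3 and 28.1 CPM in LPS and 37.4, 53.9 and 31.6 CPM in pretreated cells. Its pretreated and LPS libraries did not overlap, but a log2 fold change of 0.78 ± 0.286 was not called (adjusted p = 0.0677). Tm7sf2, a sterol reductase with 14 to 110 counts in a library, was not called in any comparison (log2 -1.03, 1.13 and 0.10, with SE of 0.472, 0.475 and 0.44). Tm7sf2 shares 532 exonic bases with Vps51 on the same strand.

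**Figure D3:**
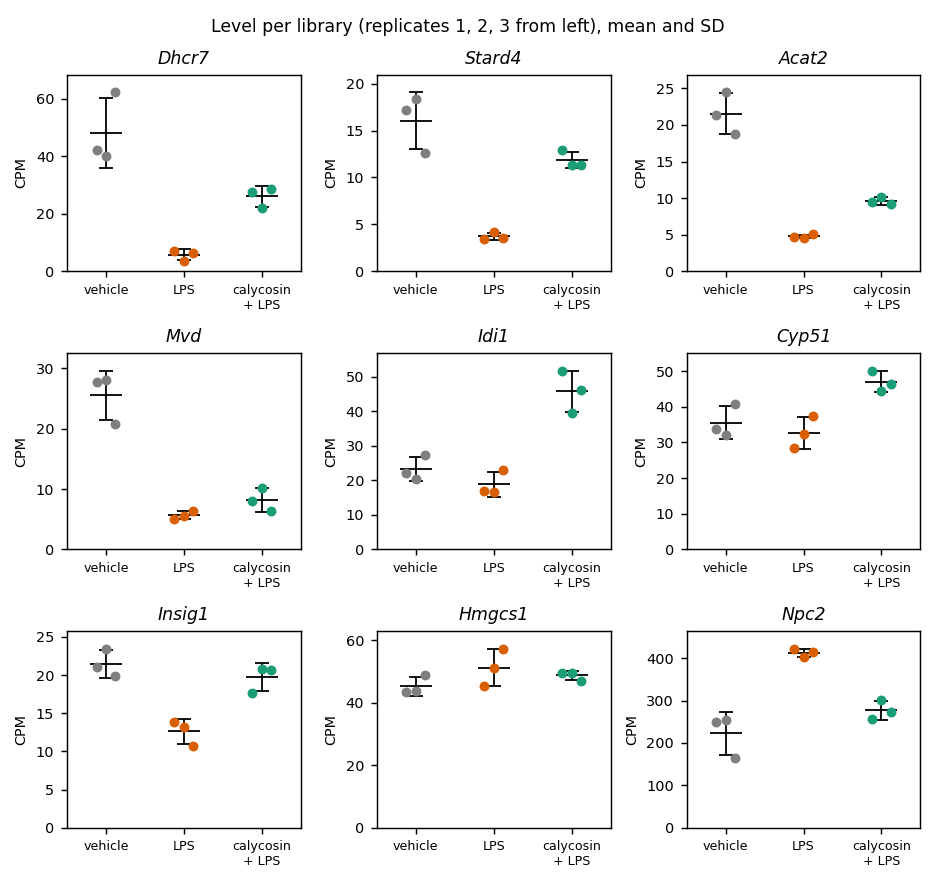
CPM of 9 members in each library (points, replicates 1 to 3 from left in each group), with the group mean and SD (n = 3 libraries) as bars; each panel has its own axis from 0. Dhcr7, Stard4 and Acat2 are lowest in LPS cells and intermediate in pretreated cells, Idi1 is highest in pretreated cells, and Hmgcs1 overlaps between all groups.

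The 6 genes of SREBP2 and of the proteins that hold, escort and cut it had log2 fold changes between -0.77 and 0.78 with LPS, 3 of them called lower and 1 higher, beside 28.9% and 27.3% of all genes tested. Srebf2 (ENSMUSG00000022463, chr15:82147181-82205379), the gene of SREBP2, was at 169, 175 and 135 CPM in vehicle, 173, 178 and 166 CPM in LPS and 177, 228 and 185 CPM in pretreated cells. Vehicle and LPS libraries overlapped, and Srebf2 was not called in any comparison (log2 0.11, 0.19 and 0.30, with SE of 0.136 each). With the mitochondrial share as a covariate Srebf2 was called higher in all 3 comparisons (log2 0.20, 0.20 and 0.41, adjusted p = 0.0265, 0.0321 and 0.000941). Among the libraries with over 10% mitochondrial counts it was called higher than vehicle in LPS and in pretreated cells (0.32 and 0.42, adjusted p = 0.0418 and 0.0266). Its level counts RNA and says nothing of how much SREBP2 was cut. Insig1 (ENSMUSG00000045294, chr5:28071363-28078662), which retains SCAP and is itself a target of SREBP2, was at 21.1, 23.4 and 19.9 CPM in vehicle, 13.9, 13.2 and 10.8 CPM in LPS and 17.7, 20.9 and 20.7 CPM in pretreated cells. The LPS libraries lay under all 6 others. Insig1 was 1.70-fold lower with LPS (log2 -0.77 ± 0.141, adjusted p = 0.00122) and 1.57-fold higher in pretreated than in LPS cells (log2 0.65 ± 0.141, adjusted p = 0.00805), and pretreated cells were at -0.12 ± 0.139 against vehicle (adjusted p = 0.498).

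Insig2, the paralog of Insig1 that is less dependent on SREBP2, was at 17.8, 16.9 and 16.1 CPM in vehicle, 21.7, 15.2 and 15.9 CPM in LPS and 20.6, 26.8 and 26.0 CPM in pretreated cells. Vehicle lay within the LPS range. Insig2 was called only against vehicle in pretreated cells (log2 0.53 ± 0.165, adjusted p = 0.0241), with 0.05 ± 0.166 for LPS over vehicle and 0.48 ± 0.166 for pretreated over LPS (adjusted p = 0.807 and 0.0561). Scap (ENSMUSG00000032485, chr9:110333288-110384950), the escort of SREBP2, was at 73.1, 72.4 and 60.0 CPM in vehicle, 54.7, 46.0 and 42.0 CPM in LPS and 64.0, 77.9 and 65.2 CPM in pretreated cells. The LPS libraries were the lowest, and vehicle and pretreated libraries overlapped. Scap was 1.44-fold lower with LPS (adjusted p = 0.00987) and 1.45-fold higher in pretreated than in LPS cells (adjusted p = 0.0183), and 0.01 ± 0.14 on the log2 scale in pretreated over vehicle. Its LPS call was lost among the libraries with over 10% mitochondrial counts (log2 -0.36, adjusted p = 0.112).

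Of the proteases, Mbtps1 makes the first cut of SREBP2 and Mbtps2 the second, inside the membrane. Mbtps1 was at 118, 120 and 87.1 CPM in vehicle, 71.0, 71.0 and 66.5 CPM in LPS and 85.8, 104 and 89.8 CPM in pretreated cells. LPS libraries were below all others, with a 1.56-fold fall from vehicle (adjusted p = 0.00348) and a 1.34-fold higher level in pretreated cells (adjusted p = 0.048). Mbtps2 was at 77.9, 79.6 and 143.7 CPM in vehicle, 175.8, 186.7 and 154.7 CPM in LPS and 147.6, 102.2 and 142.9 CPM in pretreated cells. Vehicle replicate 3 lay with the pretreated libraries and was at 1.82 times the mean of the other vehicle libraries. The call of Mbtps2 as higher with LPS (log2 0.78 ± 0.243, adjusted p = 0.0204) turned on the unadjusted TPM scale, where the group means were 52.2 and 52.0 TPM. Mbtps2 shares 2867 exonic bases with Yy2 on the same strand, a gene with 324 counts over all libraries against 38096.

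Of the 3 genes of sterol movement inside the cell, the cytosolic carrier was lower with LPS and the lysosomal pair was higher in the counts, but not called on the TPM scale. Stard4 (ENSMUSG00000024378, chr18:33199355-33213862), a cytosolic carrier of sterol whose gene is a target of SREBP2, was at 17.2, 18.3 and 12.6 CPM in vehicle, 3.46, 4.18 and 3.57 CPM in LPS and 12.9, 11.4 and 11.3 CPM in pretreated cells. LPS libraries were under all others, and pretreated libraries overlapped only vehicle replicate 3. Stard4 fell 4.29-fold with LPS (log2 -2.10 ± 0.176, adjusted p = 6.37e-06) and was 3.17-fold higher in pretreated than in LPS cells (log2 1.67 ± 0.175, adjusted p = 0.000248). Against vehicle its log2 fold change in pretreated cells was -0.44 ± 0.164, which was not called (adjusted p = 0.050). In limma on log2(TPM + 1), where its LPS level averaged 1.55 TPM, the difference between pretreated and LPS cells was 1.02 and not called (adjusted p = 0.082).

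Npc1 and Npc2 encode the pair of lysosomal proteins that hand over cholesterol freed from endocytosed lipoprotein. Npc2 (ENSMUSG00000021242, chr12:84754562-84773152) was at 250, 254 and 164 CPM in vehicle, 421, 403 and 415 CPM in LPS and 257, 302 and 272 CPM in pretreated cells. The LPS libraries were above all others. Npc2 rose 1.86-fold with LPS (adjusted p = 0.00133) and was 1.49-fold lower in pretreated than in LPS cells (log2 -0.58 ± 0.165, adjusted p = 0.0273). On the TPM scale it averaged 168 TPM in vehicle, 175 TPM in LPS and 153 TPM in pretreated cells, and limma on log2(TPM + 1) called neither difference (0.18 and -0.23, adjusted p = 0.677 and 0.714). Npc1 (ENSMUSG00000024413, chr18:12189692-12236400) was at 147, 141 and 169 CPM in vehicle, 249, 231 and 224 CPM in LPS and 228, 238 and 226 CPM in pretreated cells. LPS and pretreated libraries overlapped above vehicle. Npc1 was 1.54-fold higher with LPS (adjusted p = 0.000787) and 1.52-fold higher than vehicle in pretreated cells (adjusted p = 0.00134), with -0.02 ± 0.106 between LPS and pretreated cells, and its direction with LPS turned on the unadjusted TPM scale. Npc1 shares 511 exonic bases with Rmc1 on the opposite strand, which had 9999 counts against 60676.

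Compared per transcript length, mean levels of the members ran from 3.71 TPM (Tm7sf2) to 168 TPM (Npc2) in vehicle, from 0.909 to 175 TPM in LPS and from 2.61 to 153 TPM in pretreated cells, for the same pair of genes. The median member was at 26.5 TPM in vehicle, 11.9 TPM in LPS and 20.3 TPM in pretreated cells, on a scale where the LPS libraries were low for genes in general. Libraries of a group differed least for Sqle in LPS cells, with a coefficient of variation of 0.171%, and most for Tm7sf2 in vehicle (55.3%). Sqle had 736, 815 and 804 counts in the LPS libraries, for which sampling noise alone is wider, so this lowest value does not measure reproducibility. Across members the median coefficient of variation was 16.6% in vehicle, 11.7% in LPS and 10.6% in pretreated cells.

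Other genes around the pathway, from lists chosen by function, did not share a direction. Like the members, they were chosen with earlier results of these data known, so their contrast with the members is descriptive only. Of 50 such genes 49 were found by symbol and 48 tested, and Vldlr had no counts. With LPS 16 were higher and 13 lower (27.3% and 28.9% of all genes tested), with a median log2 fold change of -0.03. In pretreated over LPS cells 4 were higher and 5 lower (16.1% and 12.9% of all genes tested), with a median of -0.0048, beside 0.47 for the 28 members. In pretreated over vehicle 17 were higher and 13 lower (25.4% and 23.6%). Por, which feeds electrons to Cyp51 and Sqle, was at 174, 187 and 294 CPM in vehicle, 761, 704 and 733 CPM in LPS and 347, 292 and 355 CPM in pretreated cells. The LPS libraries stood far above the rest. Por rose by 1.75 on the log2 scale with LPS (adjusted p = 4.87e-05) and was 1.14 lower in pretreated than in LPS cells (log2 -1.14, adjusted p = 0.00235), while Cyp51 and Sqle were higher there. Cyb5a, another electron carrier, was lower with LPS (log2 -0.88, adjusted p = 0.0159), except without LPS replicate 1 (0.0654), and was at 0.08 in pretreated over LPS.

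Of 5 genes that supply acetyl-CoA and acetoacetyl-CoA, Acss2 and Aacs were lower with LPS (log2 -0.96 and -1.35, adjusted p = 0.015 and 0.000471), the former not without vehicle replicate 2 or LPS replicate 3 (0.0507 and 0.0577). Among the libraries with over 10% mitochondrial counts, Acss2 was at -0.26 in LPS over vehicle. Acss2, which activates acetate, was higher in pretreated than in LPS cells (log2 1.05, adjusted p = 0.0198), a call lost without any single LPS library or calycosin plus LPS replicate 2 (0.0506 to 0.0689). That call was also lost in limma on log2(TPM + 1) (1.03, adjusted p = 0.112). Acly, which makes acetyl-CoA from citrate, was lower than vehicle in pretreated cells (log2 -0.57, adjusted p = 0.011), a call lost without calycosin plus LPS replicate 1 or 3 (0.0516 and 0.0504). Of 14 genes that retain or degrade sterol proteins in the endoplasmic reticulum, 7 were higher and 1 lower with LPS, beside 27.3% and 28.9% of all genes tested. The ubiquitin ligase gene Rnf139 was at 23.0, 23.3 and 22.7 CPM in vehicle, 72.0, 73.6 and 77.9 CPM in LPS and 70.2, 62.1 and 68.5 CPM in pretreated cells. Its rise with LPS (log2 1.69, adjusted p = 5.39e-07) was accompanied by that of the ligase gene Syvn1 (log2 1.76, adjusted p = 0.00014). Rnf145, a sterol-responsive ligase gene, was the 1 lower gene with LPS (log2 -0.46, adjusted p = 0.0195) and the only gene of this list called in pretreated over LPS (log2 0.62, adjusted p = 0.00975). With vehicle replicate 1 or 2 or LPS replicate 1 or 3 left out, its fall with LPS was not called (0.0528 to 0.0577). Among the libraries with over 10% mitochondrial counts, Rnf145 was at -0.16 in LPS over vehicle. Limma on log2(TPM + 1) did not call it in pretreated over LPS (0.88, adjusted p = 0.118).

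Of 12 genes that use isoprenoids, 4 were higher and 4 lower with LPS (27.3% and 28.9% of all genes tested), and 1 was higher and 3 lower in pretreated over LPS (16.1% and 12.9%). Pdss1, which builds the coenzyme Q side chain, rose with LPS (log2 1.27, adjusted p = 3.1e-05), and its partner Pdss2 was lower in pretreated than in LPS cells (log2 -0.84, adjusted p = 0.00476). Neither was called in limma on log2(TPM + 1) (0.45 and -0.25, adjusted p = 0.148 and 0.452). Fntb, a subunit of protein farnesyltransferase, was at 14.6, 13.4 and 17.1 CPM in vehicle, 9.43, 9.92 and 8.27 CPM in LPS and 5.45, 5.21 and 6.12 CPM in pretreated cells. Fntb thus stepped down between groups that did not overlap (log2 -0.71 with LPS and -0.72 in pretreated over LPS, adjusted p = 0.00247 and 0.00614). The second step was not called in limma on log2(TPM + 1) (-0.35, adjusted p = 0.336). Icmt, which methylates prenylated proteins, was lower with LPS (log2 -0.95, adjusted p = 0.00277), and its call as higher in pretreated over LPS (0.61, adjusted p = 0.0443) was lost without any single LPS or pretreated library (0.0603 to 0.133). It was also lost in limma on log2(TPM + 1) (0.86, adjusted p = 0.179). Of 12 tested genes of esterification, transfer and other links to SREBP2, 4 were higher and 5 lower with LPS, beside the same shares. Gramd1a, a carrier of sterol from the plasma membrane, rose with LPS (log2 1.76, adjusted p = 2.18e-05) and was lower in pretreated than in LPS cells (log2 -0.77, adjusted p = 0.00882). Limma on log2(TPM + 1) called neither change of Gramd1a (0.73 and -0.41, adjusted p = 0.0635 and 0.416). Gramd1c, a relative of Gramd1a at 0.253 CPM in vehicle and 1.04 CPM in pretreated cells, was higher there (log2 1.98, adjusted p = 0.0109), a call lost without vehicle replicate 2 (0.0514). Mmab, whose gene lies head to head with Mvk, was higher in pretreated than in LPS cells (log2 0.56, adjusted p = 0.0113), and Cd320 fell with LPS (log2 -1.52, adjusted p = 1.69e-05) and was at 0.39 in pretreated over LPS (adjusted p = 0.0689). The calls of Gramd1c and Mmab were lost in limma on log2(TPM + 1) (0.34 and 0.84, adjusted p = 0.0556 and 0.0531).

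**Figure D4:**
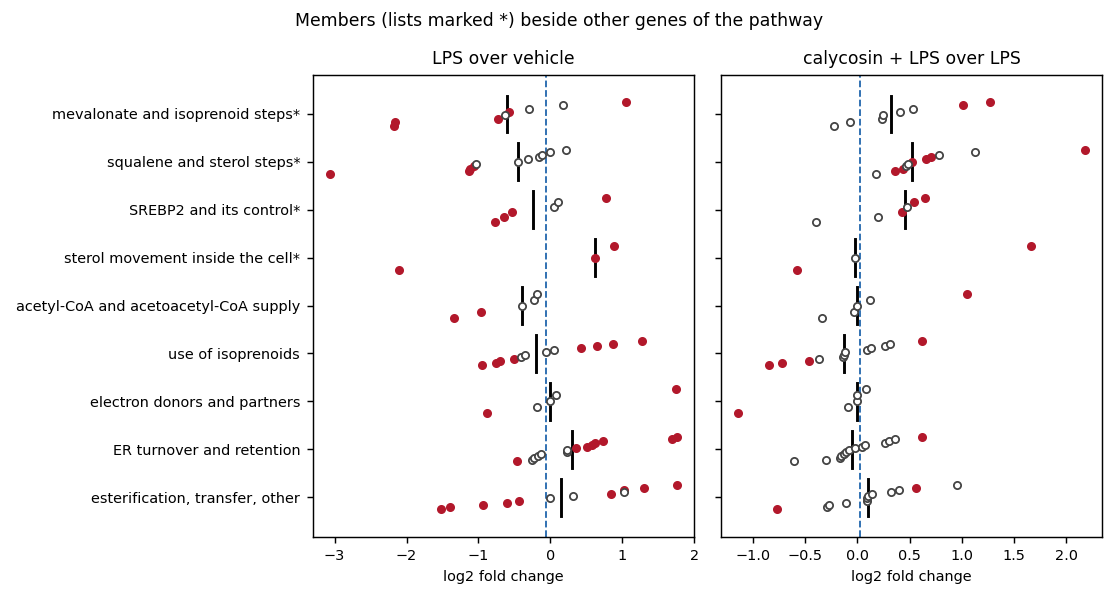
Log2 fold change of each gene (points) by list, for LPS over vehicle and for pretreated over LPS cells; lists marked * hold the 28 members, filled red points passed an adjusted p of 0.05, black bars are list medians and the dashed line is the median of all genes tested. In the right panel the first 3 member lists have medians of 0.33, 0.52 and 0.45. The member list of sterol movement is at -0.02, and the lists without members lie between -0.13 and 0.10.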

How the data were processed

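Polyadenylated RNA of 9 cultures was sequenced. The submitters' processing notes name Trimmomatic 0.36, HISAT2 2.0, StringTie 1.3.3b and the mm10 build, in no stated order. The authors deposited whole-number counts per gene, not normalized, for 51826 genes, and TPM values, scaled by the authors for transcript length and depth, for 51799. Which read counter, annotation and strand setting they used is not given in the sources used here.

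The members and gene lists were chosen with earlier results of these data known. Genes were filtered with filterByExpr, scaled by TMM (factors 0.786 to 1.42) and fitted over all 9 libraries in edgeR 4.0.16 (R 4.3.3), with two-sided quasi-likelihood tests adjusted by the Benjamini-Hochberg method over the 14458 genes tested. The SE comes from the test statistic. P-values of this fit judge group differences against the spread between cultures, estimated over all 9 libraries with information shared between genes. An exact permutation of 3 against 3 cannot go below 0.1. Replicate counts of every group differed by more than sampling noise, so no library was counted as a copy. Same-numbered libraries did not deviate together (correlations of -0.173 to 0.364, 2 of 9 over 0.1), so numbers were not used as pairs.

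All members are named; of the 50 other pathway genes, those named are up to 2 called genes with the largest change per list and comparison, plus Vldlr, without counts, and Lipa, chosen after its values were seen. Alternatives were DESeq2 1.42.0, other scalings and filters, limma 3.58.1 on log2(TPM + 1) or log2(TPM + 0.1), mitochondrial share as a covariate, and libraries left out. Exon overlaps used GENCODE M21 and promoters RefSeq. The script was tested on simulated counts.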

Additional observations from a re-analysis of the deposited data

How the results depend on the processing

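The 6 counts of called members were recomputed under 14 alternatives and without each library in turn. Of the 14, the counts in LPS over vehicle stayed within 1.5 times the main value in 11 for higher and 11 for lower members, those in calycosin plus LPS over LPS in 11 and 8, and those in calycosin plus LPS over vehicle in 9 and 13. Upper-quartile scaling gave 0 lower members in calycosin plus LPS over LPS and 5 higher in calycosin plus LPS over vehicle. Without a filter on low counts, 0 were lower in calycosin plus LPS over LPS. With the mitochondrial share as a covariate, 19 were higher and 3 lower in that comparison. That fit called 46.9% of all genes tested there, against 29.1% in the main fit. Among the libraries with over 10% mitochondrial counts, 5 were higher in calycosin plus LPS over vehicle. With both libraries that stand apart left out, chosen after seeing the data, 10 were lower in calycosin plus LPS over vehicle. There 60.1% of all genes tested were called, against 49% in the main fit.

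In all 3 limma fits on TPM, 0 members were higher and 19 lower in LPS over vehicle, 0 were lower in calycosin plus LPS over LPS and 0 were higher in calycosin plus LPS over vehicle. On log2(TPM + 1), 5 were higher in calycosin plus LPS over LPS, or 4 without the filter, against 12 in the counts. The respective shares of all genes called were 12.2% and 4.64%, against 29.1% in the counts. Of the called members, those that turned in these fits were Npc1 in LPS over vehicle (-0.159 with a pseudocount of 1, -0.161 with 0.1), Mbtps2 there (-0.00879 and -0.00898), Cyp51 in calycosin plus LPS over vehicle (-0.0648 and -0.0674). Sc5d in LPS over vehicle, not called in the counts (0.21), was at -0.453 on log2(TPM + 1) with and without the filter (adjusted p = 0.068 and 0.0478). With the filter, 4 of 12 members not called in LPS over vehicle turned on log2(TPM + 1), 3 of 15 in calycosin plus LPS over LPS and 8 of 14 in calycosin plus LPS over vehicle. For the fits on TPM the cause was not tested beyond the shift of the median of all genes given above; for the others the cause was not tested.

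Leaving out each library in turn gave 7 to 17 higher and 0 to 1 lower members in calycosin plus LPS over LPS, 4 to 8 higher and 6 to 10 lower in calycosin plus LPS over vehicle, and 3 to 5 higher and 11 to 14 lower in LPS over vehicle. The lowest of these counts of higher members in calycosin plus LPS over LPS, 7, came without LPS replicate 2, and the highest, 17, without vehicle replicate 3. Of all genes tested, 20.1% and 38.4% were called in these fits, against 29.1% with all libraries. With the replicate number as a block, the counts were 4 higher and 12 lower, 12 and 1, and 8 and 6 in the 3 comparisons, as without it, and no member's call changed. Tm7sf2 had the fewest counts, 14 to 110 per library, an SE of at least 0.44 and a coefficient of variation of 55.3% in vehicle; the cause of its spread was not tested.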

Other observations

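Lipa, the lysosomal acid lipase that frees cholesterol from its esters, was among the listed pathway genes and was singled out after its values were seen. It was at 375.8, 371.3 and 142.1 CPM in vehicle replicates 1, 2 and 3, at 134.9, 479.9 and 488.5 CPM in the LPS replicates and at 518.4, 175.8 and 522.3 CPM in the calycosin plus LPS replicates. A single library in each group was thus far under its partners, and on the TPM scale the same libraries were low, at 75.5, 58.9 and 124 TPM against 209 to 342 TPM in the other 6. Lipa was not called in any comparison (adjusted p = 0.658, 0.873 and 0.532). The low vehicle and calycosin plus LPS libraries are those that stood apart over all genes, and the low LPS library did not stand apart.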
